A study of Homo sapiens with 34 samples.

Results

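RNA polymerase II is the enzyme that makes messenger RNA, and the genes described here encode its subunits, the Mediator complex and the general transcription factors that set it on promoters. They are the 80 genes, of 19041 with an annotated 3′ UTR interval, whose symbols begin as POLR2 (subunits A to L), MED with a number, GTF2A, GTF2B, GTF2E, GTF2F or GTF2H, or TAF with a number. The choice used names alone, so it also took in TAF15, an RNA-binding protein, and the TAFs of the SL1 factor, which serves RNA polymerase I. It left out TBP, the CDK and cyclin subunits of TFIIH and Mediator, and the elongation factors, which are counted further on as a list of their own.

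At a promoter, TFIID binds DNA through TBP and its TBP-associated factors (TAFs), TFIIA and TFIIB steady this contact, TFIIF brings in the polymerase, and TFIIE recruits TFIIH, which opens the DNA and phosphorylates the polymerase tail. Mediator bridges DNA-bound activators and the polymerase: its head and middle modules touch the enzyme, its tail module meets activators, and a separable kinase module holds CDK8 or CDK19. Most of these subunits are needed in every dividing cell.

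The cells were hTERT-RPE1, a human retinal pigment epithelial line immortalised with telomerase. In the knockdown line doxycycline induced an shRNA against the CCND1 3′ UTR, and in the overexpression line it induced that shRNA together with a FLAG-tagged CCND1 that the shRNA spares, CCND1 being the gene of cyclin D1, which drives cells from G1 into S phase. By the study's methods both lines were made with lentivirus and selected as polyclonal pools, and the knockdown cells are the large ones and the overexpression cells the small ones. All cells, in either line, received 0.5 µg/mL doxycycline and, from day 4, 10 µM of 4-thiouridine (s4U) for 24 h with new medium every 3 h, followed by a chase in 1 mM uridine. Unlabelled controls were given 10 µM uridine instead, and were harvested when the chase of the others began. No uninduced cells were analysed here. Bases of s4U read as C after alkylation, so the T>C conversion rate of an mRNA falls as its labelled copies decay. There were 34 libraries, 17 per line, in 4 time courses (2 per line, numbered by replicate), of which 30 were labelled and 4 were not. The comparison asks whether the mRNAs of the transcription machinery differ in level or in lifetime between large and small cells.

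Libraries held 14712332 to 44480703 reads in 3′ UTRs. Levels are given as CPM, reads per 1000000 reads of the library's TMM-scaled size, and since the method reads 1 end per transcript they are not scaled by length. In bulk libraries fewer cells of a type and less RNA per cell cannot be told apart, and a level is a share of the library's RNA. Across 9058 genes, 31 libraries correlated with the rest of their line at r of 0.969 to 0.990. The other 3, the unlabelled libraries of course 1 in knockdown and overexpression and the 720 min library of overexpression course 1, gave r of 0.874 to 0.921. All 5 markers of hTERT-RPE1 cells averaged above 1 CPM in both lines (OTX2 was as low as 0.312 CPM in a knockdown and 0.755 CPM in an overexpression library), with summed levels of 6535 to 12190 CPM in knockdown and 6388 to 11220 CPM in overexpression libraries. VIM made up most of this sum, at 8211 CPM in knockdown and 7982 CPM in overexpression (log2 difference 0.03). KRT8 (log2 0.92), KRT18 (0.63) and MITF (0.96) were higher in knockdown, at edgeR adjusted p of 0.0080 or less. OTX2 lay the other way, at -0.82 (edgeR adjusted p = 0.097). None of the 6 markers of mature retinal pigment epithelium and none of 11 markers of blood, endothelium and other cell types averaged 1 CPM or more in either line, and in single libraries they reached at most 1.07 CPM in knockdown and 1.24 CPM in overexpression. Reads in the native CCND1 3′ UTR were 148 ± 12.04 CPM in knockdown and 58.0 ± 6.36 CPM in overexpression (SD, n = 2 courses each). Both lines carry the shRNA against it and the transgene may lack it, so these reads check neither label, and the line names below stand for libraries so labelled. Whether the courses were separate cultures is not stated, so p-values measure only the spread between courses, which may be technical.

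The gene of the catalytic subunit, POLR2A, was not measured by these libraries. Its only interval (hg38, chr17:7499522-7499758, plus strand) ends 14421 bases before the end of the canonical transcript at base 7514179, inside the gene. It held 40 reads in all 34 libraries, 35 in knockdown and 5 in overexpression, and no read in 14 of 17 knockdown and 16 of 17 overexpression libraries. The last 30 bases of that interval are shown because they carry neither AATAAA nor ATTAAA, and other forms were not searched for. Beside them is a stretch near the interval's end of the other large subunit's gene, POLR2B (chr4:57030989-57031168, plus strand), which carries AATAAA. Capitals mark the hexamer AATAAA or its variant ATTAAA, to which the 3′ end cleavage machinery binds.
POLR2A: taaaggaaagataaagggaaaaataagtaa
POLR2B: ctgtaaatatatAATAAAtttttgtagata
The hexamer of POLR2B begins 31 bases before the interval's end, and neither form stands in the last 50 bases of the POLR2A interval. The level of POLR2A mRNA is therefore not analysed here, and POLR2A is left out of every test.

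Most other members had an interval that ended near the annotated end of the transcript, though cleavage itself was not measured. In 64 of the 80 the interval with most reads ended within 50 bases of the canonical end in GENCODE version 44, and AATAAA or ATTAAA stood in the last 50 bases of 57 of 79 member intervals (72.2%), against 10253 of 13073 over all tested genes (78.4%), searched on the mRNA strand. Besides POLR2A, the paralogues MED12L and GTF2A1L had too few reads to test, at 29 and 40 over all libraries. TAF1L with 132 reads and TAF7L with 256 were tested but stayed under 1 CPM in all course means. Testing therefore covered 77 members.

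Of 77 members tested, 4 were higher and 7 lower in knockdown than in overexpression, 14.3% called against 21.9% of 13165 genes (edgeR, adjusted p under 0.05, 2 courses against 2). Over all genes 11.2% were called higher and 10.7% lower. The median log2 difference was -0.18 over the members and -0.01 over all genes, and 54 of the 77 lay below 0 (70.1%, against 50.6% of all genes). At single time points (log2 with 1 CPM added) the members' median was 4.3e-05 in unlabelled samples and -0.20 to -0.11 at the labelled times. The part of the label in this was not tested, and the course 1 unlabelled libraries stand apart. The median standard error (SE) of a member was 0.14. In a fit of 34 libraries with time as a covariate, which treats libraries of a course as replicates, 7 members were higher and 26 lower, 42.9% called against 39.6% of genes. With the replicate number of the courses as a block, 8 members were higher and 27 lower, 45.5% called against 39.9% of genes. Each of the 11 called members had at least 1 end of its library ranges at one of the 3 libraries that stand apart. The same count was not made for uncalled members or all genes, so it does not set the called ones apart. Without the unlabelled and 720 min samples 10 of the 11 were called, among 4 higher and 13 lower, 22.1% called against 30.9% of genes. The plot of differences by role gives all 77.

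**Figure D1:**
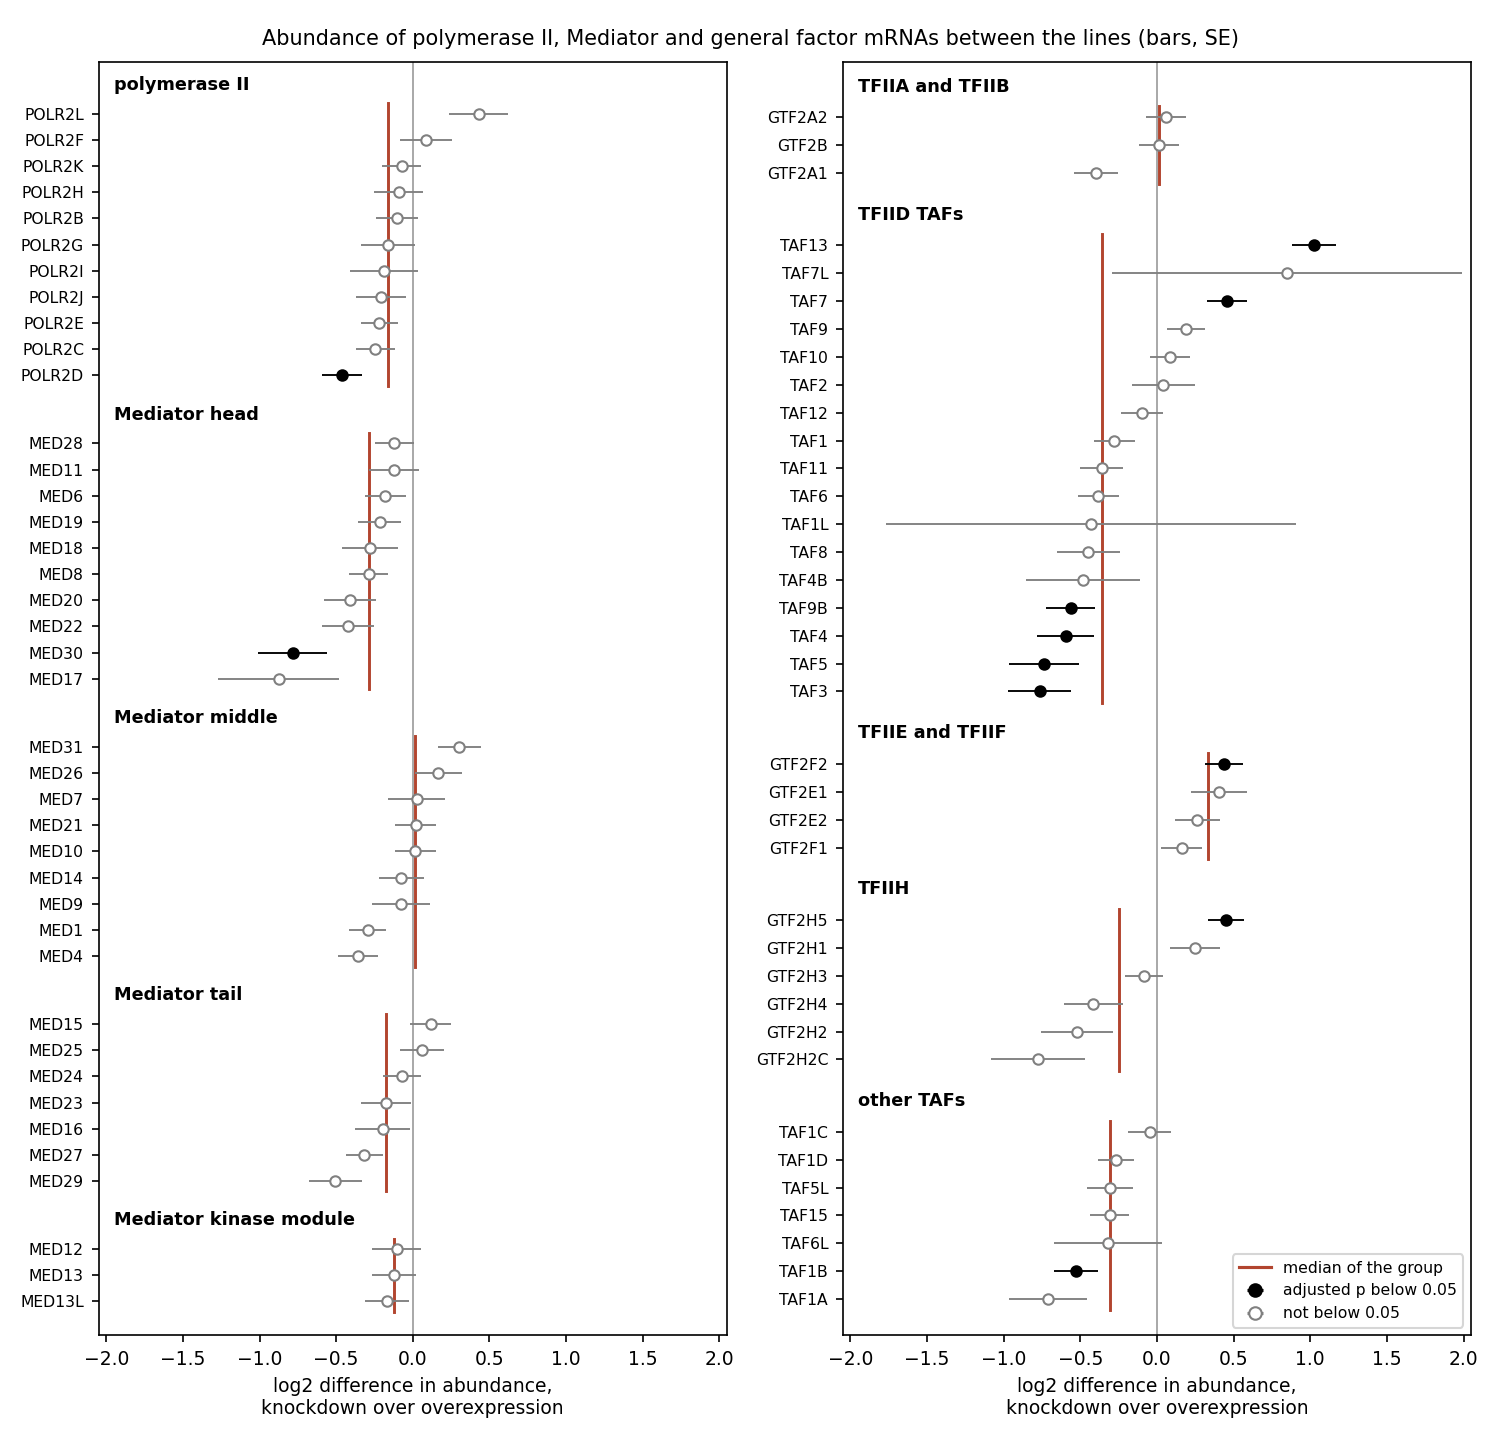
Log2 difference in mRNA level, knockdown over overexpression, for the 77 tested members grouped by role (x axis, points with SE from edgeR on 2 courses against 2, filled where the adjusted p is under 0.05, red lines at group medians). TAF13 stands farthest to the right at 1.02, and the 10 genes of the Mediator head all lie left of 0.

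In the same libraries 11 of 11 cell cycle genes (the MCM genes, PCNA and others) were lower in knockdown, with a median log2 difference of -1.23 and a range from -1.53 to -0.80. The part of the cell cycle in the members' differences was not tested.

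Over all genes 21.9% were called, the share to set beside each group by role below. Among the polymerase subunits 1 of 11 was called (9.09%), and it was POLR2D. This subunit (RPB4 in yeast nomenclature) forms with POLR2G a stalk on the enzyme that meets the emerging RNA. POLR2D had 66.3 and 64.4 CPM in the knockdown courses, against 95.9 and 82.7 CPM in the overexpression courses, and its 17 libraries spanned 51.0 to 81.7 CPM with a median of 63.3 in knockdown, against 77.4 to 140.0 CPM with a median of 83.7 in overexpression. The ranges overlapped only between 77.4 and 81.7 CPM. The log2 difference was -0.46 (SE 0.13, edgeR adjusted p = 0.032). Its partner in the stalk, POLR2G, had 74.9 and 102 CPM in knockdown and 84.3 and 112 CPM in overexpression, with a log2 difference of -0.16 (adjusted p = 0.56).

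The largest positive value among the subunits was that of POLR2L, the small zinc-binding RPB10 that all 3 nuclear polymerases share. POLR2L had 445 and 676 CPM in knockdown, against 358 and 468 CPM in overexpression, a log2 difference of 0.43 (SE 0.19, adjusted p = 0.14). The gap between the courses of a line was as wide as that between the lines, though knockdown was the higher at either course number. With the replicate number as a block POLR2L was called, as were 39.9% of genes. POLR2L, POLR2E (302 ± 4.11 CPM in knockdown, 349 ± 27.5 in overexpression) and TAF1D (231 ± 0.268 CPM in knockdown, 276 ± 0.631 in overexpression) were the most abundant members. POLR2E encodes RPB5, another subunit shared by the 3 enzymes. The second largest subunit, POLR2B, had 129.8 and 111 CPM in knockdown and 136 and 120.3 CPM in overexpression, and POLR2C of the assembly platform had 95.3 and 107 CPM in knockdown and 122 and 116 CPM in overexpression. Log2 differences of POLR2B, POLR2C, POLR2E, POLR2F, POLR2H, POLR2I, POLR2J and POLR2K lay from -0.24 (POLR2C) to 0.09 (POLR2F), with adjusted p of 0.20 or more. Of these, POLR2C and POLR2E were called with the replicate number as a block.

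For several subunits the courses numbered 2 were above those numbered 1 in either line. POLR2I (RPB9) had 36.8 and 60.1 CPM in knockdown courses 1 and 2, and 45.6 and 63.8 CPM in overexpression courses 1 and 2. POLR2J (RPB11) had 103 and 129.8 CPM in knockdown and 115 and 152 CPM in overexpression, and POLR2H had 69.8 and 90.7 CPM in knockdown and 75.1 and 94.3 CPM in overexpression. The log2 ratio of course 2 over course 1 was above 0 in both lines for 6 of 11 subunits, with a median of 0.27 in knockdown and 0.33 in overexpression, against 5 of 29 Mediator genes and 30.6% of 12639 genes. Without the unlabelled and 720 min samples these medians were 0.23 in knockdown and 0.11 in overexpression, over 7 of 11 subunits above 0 in both. What sets the numbered courses apart was not tested.

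Among Mediator genes 1 of 29 was called, 3.45% against 21.9% of all genes. A difference below 0 was found for 22 of the 29 (75.9%, against 50.6% of all genes, median -0.17). The head module, which contacts the polymerase, had a log2 difference below 0 in 10 of 10 genes (median -0.28), and 1 of them, MED30, passed the test. MED30 had 7.57 and 5.99 CPM in the knockdown courses, against 13.6 and 9.59 CPM in the overexpression courses. Its libraries spanned 2.85 to 24.0 CPM with a median of 5.53 in knockdown, and 6.16 to 22.7 CPM with a median of 11.9 in overexpression, and the knockdown library at 24.0 CPM was the unlabelled one of course 1. The log2 difference was -0.78 (SE 0.23, adjusted p = 0.032). The smallest difference in the head was that of MED28, at 48.4 ± 1.13 CPM in knockdown and 52.2 ± 0.198 CPM in overexpression (log2 -0.12, adjusted p = 0.55).

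The lowest head value, -0.87 for MED17 (SE 0.39, adjusted p = 0.14), rests on 2022 reads, at 1.73 and 1.09 CPM in knockdown and 2.22 and 2.92 CPM in overexpression. MED17 encodes the scaffold of the head. A further 35628 reads fell in an interval (chr11:93811853-93814963) that the annotation gives to MED17 and to AP001273.2 together and that was left out. This interval alone had a median of 31.5 CPM in knockdown and 35.4 CPM in overexpression libraries. With its reads counted for MED17, the log2 difference was -0.16 (SE 0.13, adjusted p = 0.46).

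In the middle module 0 of 9 genes were called, with differences from -0.36 for MED4 (50.2 and 45.5 CPM in knockdown, 61.8 and 59.97 CPM in overexpression, adjusted p = 0.076) to 0.30 for MED31 (40.1 and 40.5 CPM in knockdown, 29.8 and 35.0 CPM in overexpression, adjusted p = 0.15). MED1, the subunit that nuclear receptors bind, had 101 ± 2.23 CPM in knockdown and 123 ± 5.93 CPM in overexpression (log2 -0.29, adjusted p = 0.11). The tail module had 0 of 7 called, from -0.51 for MED29 (33.1 and 29.5 CPM in knockdown, 51.0 and 37.0 CPM in overexpression, adjusted p = 0.060) to 0.12 for MED15 (110.0 and 125 CPM in knockdown, 97.6 and 117 CPM in overexpression, adjusted p = 0.60). MED15 is a target of activators in the tail.

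The kinase module had 0 of 3 called and pairs of paralogues that were expressed to unequal extents. MED13 and MED13L, which tie the module to the core, were both expressed: MED13 had 69.3 ± 7.93 CPM in knockdown and 74.8 ± 6.97 CPM in overexpression, and MED13L had 54.4 ± 5.28 CPM in knockdown and 60.6 ± 6.84 CPM in overexpression. MED12, which activates CDK8, had 17.1 ± 2.32 CPM in knockdown and 18.2 ± 0.419 CPM in overexpression. Its paralogue MED12L had 18 reads in knockdown and 11 in overexpression over all libraries, so only 1 paralogue of that pair was detected at a level. Log2 differences in the module lay between -0.17 (MED13L) and -0.10 (MED12).

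TFIIE and TFIIF genes had the highest median of the groups. All 4 lay above 0, from 0.16 for GTF2F1 (41.2 and 41.1 CPM in knockdown, 33.995 and 39.0 CPM in overexpression, adjusted p = 0.45) to 0.44 for GTF2F2, with a median of 0.33 and 1 call. GTF2F2 encodes RAP30, the small TFIIF subunit that keeps the polymerase off nonspecific DNA. It had 82.7 and 83.6 CPM in the knockdown courses, against 59.99 and 62.0 CPM in the overexpression courses, and its libraries spanned 60.9 to 117 CPM (median 84.1) in knockdown and 50.002 to 79.0 CPM (median 62.2) in overexpression. The knockdown median was above the highest overexpression library. The adjusted p was 0.029 (SE 0.12). With each course left out the log2 difference ran from 0.42 to 0.46 and was not called.

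TFIIA and TFIIB genes were not called, 0 of 3, from -0.40 for GTF2A1 (64.7 and 57.8 CPM in knockdown, 87.1 and 73.2 CPM in overexpression, adjusted p = 0.069) to 0.06 for GTF2A2 (167 and 167 CPM in knockdown, 144 and 176 CPM in overexpression, adjusted p = 0.80). GTF2B, the factor that positions the polymerase at the start site, had 32.7 ± 0.131 CPM in knockdown and 32.1 ± 0.447 CPM in overexpression. GTF2A1L, a testis form of GTF2A1, had 30 reads in knockdown and 10 in overexpression.

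In TFIIH 1 of 6 genes was called. GTF2H5, the smallest core subunit, which steadies the complex and is mutated in a form of trichothiodystrophy, had 144 and 156 CPM in the knockdown courses, against 106 and 112 CPM in the overexpression courses. Its libraries spanned 114 to 179 CPM (median 152) in knockdown and 82.1 to 126 CPM (median 113) in overexpression. The log2 difference was 0.45 (SE 0.12, adjusted p = 0.023). The lowest value was -0.78 for GTF2H2C (2.07 ± 0.0895 CPM in knockdown, 3.52 ± 0.472 CPM in overexpression, adjusted p = 0.098), and GTF2H2 had -0.52 (6.80 ± 2.13 CPM in knockdown, 9.69 ± 0.323 CPM in overexpression, adjusted p = 0.14). GTF2H2 and GTF2H2C are near-identical copies, with 79.2% and 56.7% of their reads mapped to more than 1 place, so which copy a read came from is uncertain.

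TFIID held most of the members' calls, 2 higher and 4 lower of 17 TAFs, with a median of -0.36. That was 35.3% called, against 21.9% of all genes, and whether the group differs from other genes was not tested. TAF13 was the member that differed most. It pairs with TAF11 in a histone fold dimer that in yeast and human TFIID sits against TBP. TAF13 had 152 and 119.9 CPM in the knockdown courses, against 68.2 and 64.5 CPM in the overexpression courses. Its 17 libraries spanned 94.3 to 281 CPM (median 120.4) in knockdown and 51.3 to 85.0 CPM (median 63.9) in overexpression, and the highest of them was the unlabelled library of knockdown course 1. Every knockdown library was above every overexpression library, which held for 1 of 77 members and for 1.39% of all genes tested. No member had all knockdown libraries below all overexpression libraries, as 1.12% of genes did, and in either direction the lines did not overlap for 1 of 77 members and 2.51% of genes. The log2 difference was 1.02 (SE 0.14, adjusted p = 0.00093), and it ran from 0.84 to 1.19 with each course left out. At single time points it was 1.595 in unlabelled samples, 0.90 at 0 min, 0.96 at 180 min, 1.06 at 360 min, 0.61 at 720 min and 0.98 at 1440 min. Its dimer partner TAF11 had 28.8 and 33.7 CPM in knockdown and 40.4 and 39.2 CPM in overexpression, a log2 difference of the other sign (-0.36, adjusted p = 0.091).

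The other TAF that was higher was TAF7, which binds TAF1 and curbs its acetyltransferase activity. TAF7 had 141 and 119 CPM in the knockdown courses, against 92.2 and 96.2 CPM in the overexpression courses, with libraries from 94.4 to 179 CPM (median 128) in knockdown and 77.3 to 109.8 CPM (median 97.6) in overexpression (log2 0.45, SE 0.13, adjusted p = 0.032). TAF1, the largest TAF, was not called, at 29.7 ± 0.693 CPM in knockdown and 35.7 ± 1.63 CPM in overexpression (log2 -0.28, adjusted p = 0.17).

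The 3′ ends of some called genes, 2 TAFs that were higher and 1 subunit and 1 TAF that were lower, are shown as examples to place the counted reads. Each is the 30-base stretch around the hexamer, in capitals, from hg38 on the mRNA strand.
TAF13: aaaatatgaacaATTAAAcaggttgatcct
TAF7: tccaatacaataAATAAAagcatctgtttt
POLR2D: agtaatactgttAATAAAaagcactaaata
TAF3: ggggaagtgcaaAATAAAgattattggcta
The hexamer began 22 bases before the interval's end in TAF13 (chr1:109062486-109063072, minus strand), 28 in TAF7 (chr5:141318488-141318994, minus strand), 23 in POLR2D (chr2:127843551-127848106, minus strand) and 21 in TAF3 (chr10:8014752-8016627, plus strand). TAF13 has the ATTAAA variant and the others AATAAA. The TAF13 interval ends at base 109062486, past the canonical transcript end at 109064140 on this strand, and held 99.5% of the gene's reads. Nearly all reads counted for TAF13 therefore lay beyond the canonical end, and which transcript they came from was not tested.

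The 4 TAFs that were lower were TAF3, TAF5, TAF4 and TAF9B, all among the less abundant members. TAF3, whose PHD finger reads trimethylated histone H3, had 7.23 and 7.195 CPM in the knockdown courses, against 14.0 and 10.3 CPM in the overexpression courses. Its libraries spanned 2.22 to 11.9 CPM (median 7.72) in knockdown and 4.45 to 38.9 CPM (median 10.3) in overexpression, and the library at 38.9 CPM was the unlabelled one of overexpression course 1. The log2 difference was -0.77 (SE 0.20, adjusted p = 0.022), and without the unlabelled and 720 min samples it was -0.48 with an adjusted p of 0.058.

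TAF5, a WD40 scaffold of the TFIID lobes, had 10.1 and 6.95 CPM in knockdown and 11.9 and 16.4 CPM in overexpression, a log2 difference of -0.74 (SE 0.23, adjusted p = 0.042). Its libraries spanned 2.74 to 17.03 CPM (median 7.86) in knockdown and 3.71 to 20.5 CPM (median 15.4) in overexpression. TAF4, a coactivator subunit that pairs with TAF12, had 8.81 and 7.34 CPM in knockdown and 11.5 and 12.7 CPM in overexpression (log2 -0.60, SE 0.19, adjusted p = 0.043), with libraries from 3.80 to 13.2 CPM (median 7.35) in knockdown and 5.74 to 20.1 CPM (median 10.8) in overexpression. The library ranges of TAF5 and of TAF4 overlapped over most of their length. TAF9B had 19.1 and 17.2 CPM in knockdown and 29.1 and 23.9 CPM in overexpression (log2 -0.56, SE 0.16, adjusted p = 0.031), with libraries from 10.7 to 23.5 CPM (median 18.9) in knockdown and 20.4 to 43.8 CPM (median 25.1) in overexpression.

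TAF9B is the paralogue of TAF9, and the pair ran in opposite directions. TAF9 had 119 ± 6.96 CPM in knockdown and 104 ± 3.58 CPM in overexpression (log2 0.19, adjusted p = 0.31). The difference between the paralogues was not tested. TAF4B, a gonadal form of TAF4, had 1.97 ± 0.771 CPM in knockdown and 2.73 ± 0.338 CPM in overexpression (log2 -0.48, adjusted p = 0.40). TAF7L and TAF1L, both known from male germ cells, had 155 and 69 reads over all knockdown libraries, and 101 and 63 over all overexpression libraries.

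The TAFs outside TFIID all lay below 0, 7 of 7, with 1 call. TAF1B, the SL1 subunit related to TFIIB that recruits RNA polymerase I to ribosomal DNA, had 21.3 and 23.8 CPM in the knockdown courses, against 33.3 and 31.1 CPM in the overexpression courses. Its libraries spanned 14.4 to 29.0 CPM (median 21.8) in knockdown and 20.9 to 45.3 CPM (median 31.9) in overexpression, so the overexpression median was above every knockdown library. The log2 difference was -0.53 (SE 0.14, adjusted p = 0.024). TAF1A, its SL1 partner, had -0.71 (3.23 ± 0.406 CPM in knockdown, 5.25 ± 0.540 CPM in overexpression, adjusted p = 0.070), and TAF1C had the smallest difference of the group, -0.05 (adjusted p = 0.86). TAF5L and TAF6L belong to the SAGA coactivator. TAF5L had 27.2 ± 3.86 CPM in knockdown and 33.3 ± 0.843 CPM in overexpression (log2 -0.31), and TAF6L had 1.85 ± 0.0574 CPM in knockdown and 2.29 ± 0.383 CPM in overexpression (log2 -0.32). Neither passed the test, nor did TAF6, the TFIID form, at 59.2 ± 5.35 CPM in knockdown and 76.6 ± 7.28 CPM in overexpression (log2 -0.38, adjusted p = 0.066).

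**Figure D2:**
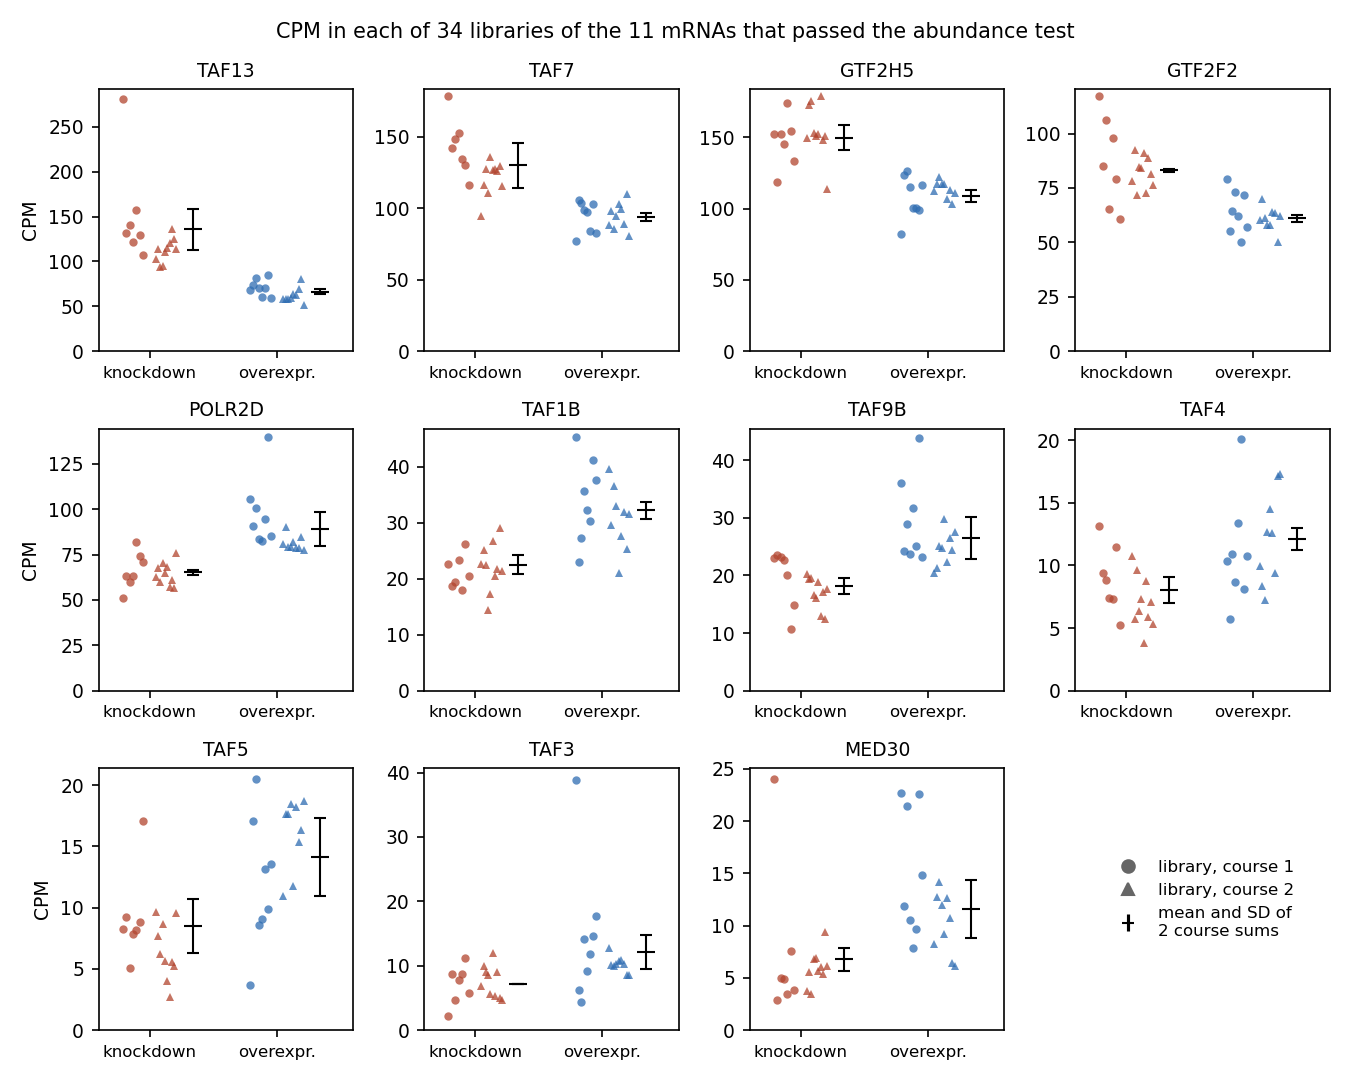
Level in CPM (y axis from 0) of the 11 members called between the lines, in each of the 17 knockdown libraries (left) and 17 overexpression libraries (right), circles for course 1 and triangles for course 2, with the mean and SD of the 2 course sums in black. TAF13 is the one gene whose libraries do not overlap, with all knockdown libraries at 94.3 CPM or more and all overexpression libraries at 85.0 CPM or less.

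The call rested on few courses for most of these genes. TAF13 kept its call in all 9 alternative settings and with each of the 4 courses left out. TAF3 lost it without overexpression course 1, MED30 and TAF9B without overexpression course 1 or knockdown course 2, TAF5 without overexpression course 2 or knockdown course 2, and TAF1B without course 1 of either line. POLR2D kept it only without overexpression course 2, TAF4 and GTF2H5 only without knockdown course 1, TAF7 only without knockdown course 2, and GTF2F2 in none of these fits. With a course left out the log2 difference ran from -1.01 to -0.50 for MED30, -1.04 to -0.49 for TAF5 and -0.96 to -0.52 for TAF3. On the 0 min libraries alone 3 of the 11 were called, TAF13, MED30 and TAF5, where 15.8% of genes were called.

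Of 57 other genes of polymerase II transcription tested, 3 were higher and 7 lower in knockdown (median -0.15), 17.5% called against 21.9% of all genes. The 3 that were higher were ELL2 (281 and 226 CPM in knockdown, 133 and 131 in overexpression, log2 0.93, adjusted p = 0.0012), AFF4 and HEXIM1. ELL2 and AFF4 are parts of the super elongation complex, and HEXIM1 inhibits the elongation kinase P-TEFb. The 7 that were lower included both subunits of the histone chaperone FACT, SSRP1 (261 and 285 CPM in knockdown, 479 and 519 in overexpression, log2 -0.88, adjusted p = 0.00074) and SUPT16H (log2 -0.54), together with LARP7, which holds 7SK RNA, at -0.67. The others were CDK19 of the Mediator kinase module (-0.59), RPRD1B (-0.52), NELFB of the pausing factor NELF (-0.51) and ERCC3, the translocase of TFIIH (-0.45). TBP, on which TFIID is built, had 24.3 and 22.0 CPM in knockdown and 24.9 and 34.4 CPM in overexpression (log2 -0.37, adjusted p = 0.16).

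Levels also changed along the chase for 3 members. Of 75 tested at 1440 over 0 min in both lines together, 3 were higher at 1440 min and 0 lower, where 4.63% of 11927 genes were called, 2.36% higher and 2.27% lower (edgeR, 8 libraries with the line as a covariate). TAF15 had 125 and 126 CPM at 0 min and 209 and 187 CPM at 1440 min in knockdown courses 1 and 2, and 149.5 and 162 CPM at 0 min and 225 and 229 CPM at 1440 min in overexpression courses 1 and 2. It was higher at the end in 4 of 4 courses (log2 0.59, adjusted p = 0.00085). TAF12, the partner of TAF4, had 18.8 and 25.4 CPM at 0 min and 31.6 and 35.9 CPM at 1440 min in knockdown, and 24.9 and 26.5 CPM at 0 min and 36.8 and 39.4 CPM at 1440 min in overexpression (log2 0.58, adjusted p = 0.030). MED11, a small head subunit, had 6.22 and 10.9 CPM at 0 min and 14.1 and 15.2 CPM at 1440 min in knockdown, and 9.13 and 7.56 CPM at 0 min and 14.1 and 16.5 CPM at 1440 min in overexpression (log2 0.81, adjusted p = 0.043).

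All 3 were higher at 1440 min in all courses. TAF15 kept its call with each course left out, whereas TAF12 and MED11 lost theirs with any 1 left out. In unlabelled cells, which never saw s4U, TAF15 stood at 237 and 145 CPM in knockdown and 247 and 179 CPM in overexpression, TAF12 at 42.1 and 24.2 CPM in knockdown and 36.3 and 29.7 CPM in overexpression, and MED11 at 14.5 and 10.8 CPM in knockdown and 21.4 and 12.7 CPM in overexpression. Log2 differences of 0 min over unlabelled were -0.52, -0.46 and -0.79 for these 3, on the same 0 min libraries as the chase comparison and with no call. No member was called for the label (0 of 76 by edgeR, 3 at an unadjusted p under 0.05, and 0 by DESeq2, where edgeR called 0.0% of 11826 genes and 3.4% passed the unadjusted p). The course 1 unlabelled libraries are among the 3 that stand apart.

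The 3′ end of TAF15 (chr17:35846946-35847242, plus strand) is given as that of the member with the firmest change over the chase, with its hexamer in capitals 33 bases before the interval's end.
TAF15: ttgtaatactgcAATAAAggctgcttgttt

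The change over the chase was not shown to differ between the lines for any member (0 of 76 by edgeR, 5 at an unadjusted p under 0.05, 0 by DESeq2, smallest adjusted p = 0.66), where 0.0163% of 12280 genes were called and 5.87% passed the unadjusted p. Within a line, 1 of 76 members was called in knockdown (TAF15) and 0 in overexpression, where 2.84% and 0.855% of genes were called.

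**Figure D3:**
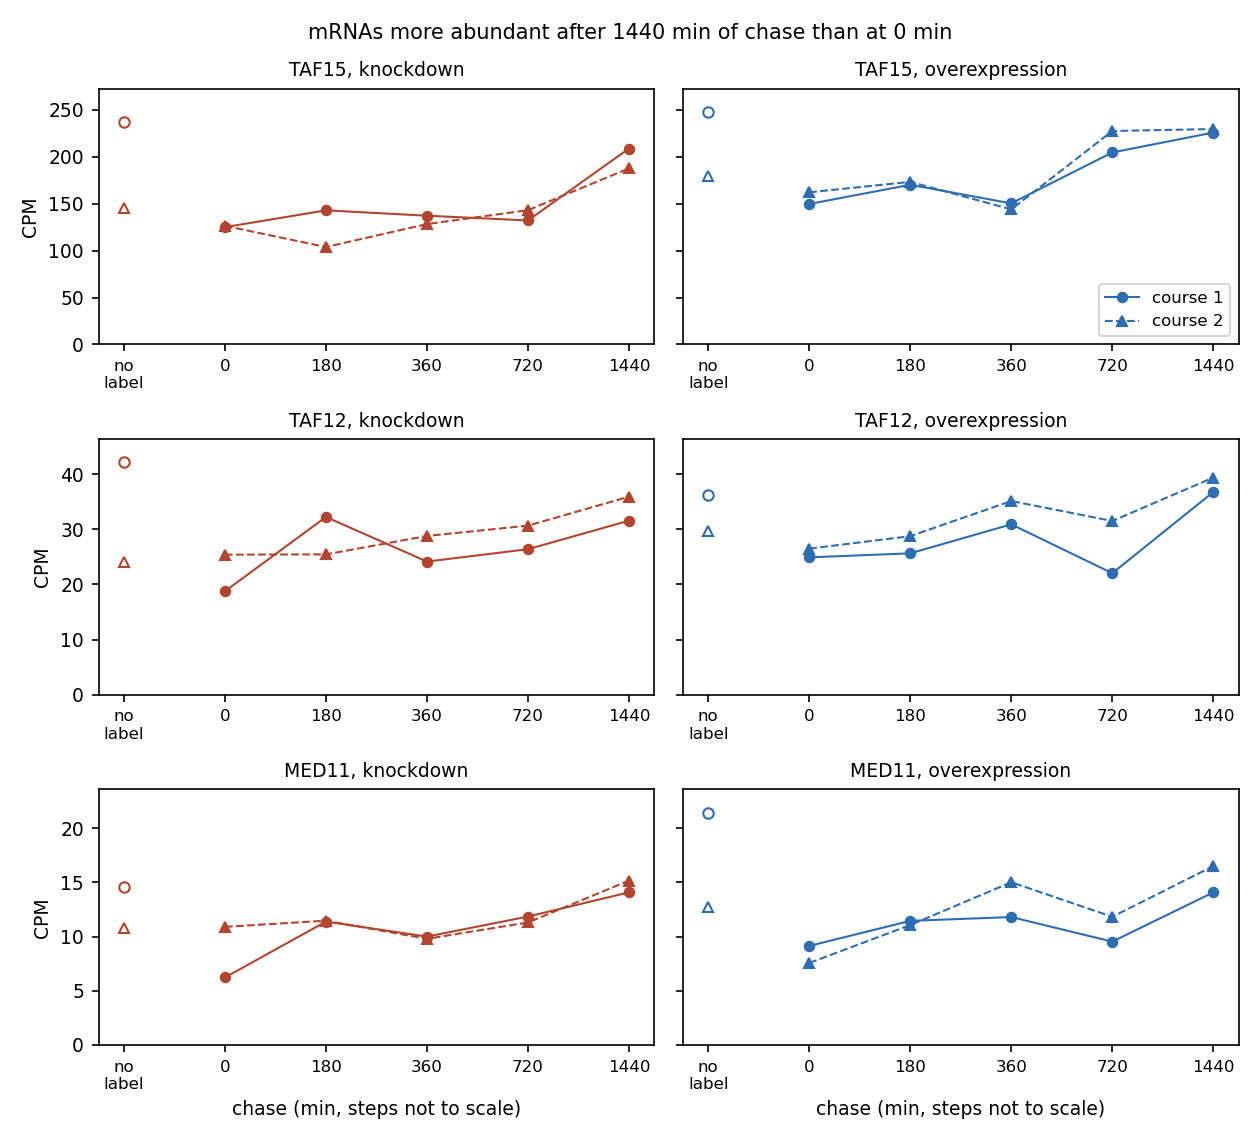
Level in CPM of TAF15, TAF12 and MED11 against sample (unlabelled, then chase time in min), with 1 line per course in knockdown (left) and overexpression (right) and open symbols for unlabelled cells; the steps of the x axis are not to scale. Each of the 4 courses is higher at 1440 min than at 0 min, as TAF15 in knockdown course 1 with 209 against 125 CPM.

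Labelled mRNA of the polymerase subunits, taken as a pool, was lost more slowly than that of Mediator in all 4 courses. The share of label left was computed from the summed conversions of a group of genes over their summed covered T bases, less the rate in the unlabelled library, relative to 0 min. At 0 min this rate was 0.849% to 0.9304% over all members, against 0.00976% to 0.0281% in the unlabelled libraries. At 180 min the polymerase genes kept 82.4% to 101% of their label, Mediator 69.6% to 77.3% and all genes 80.9% to 82.1%. At 360 min the polymerase genes kept 67.5% and 64.8% in knockdown and 64.3% and 68.9% in overexpression, while Mediator genes kept 29.3% and 30.5% in knockdown and 33.02% and 24.6% in overexpression, and all genes 47.9% to 57.2%. The gap at 360 min was 31.2 to 44.3 percentage points, with the same sign in 4 of 4 courses. At 720 min the polymerase genes kept 25.1% to 39.5% and Mediator 3.64% to 6.71%. The 25.1% was that of overexpression course 1, whose 720 min library stands apart, and the other 3 courses lay at 36.2% to 39.5%. At 1440 min the polymerase genes kept 4.18% to 14.9%, while Mediator lay between -1.38% and 1.67%, at the level of unlabelled cells.

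**Figure D4:**
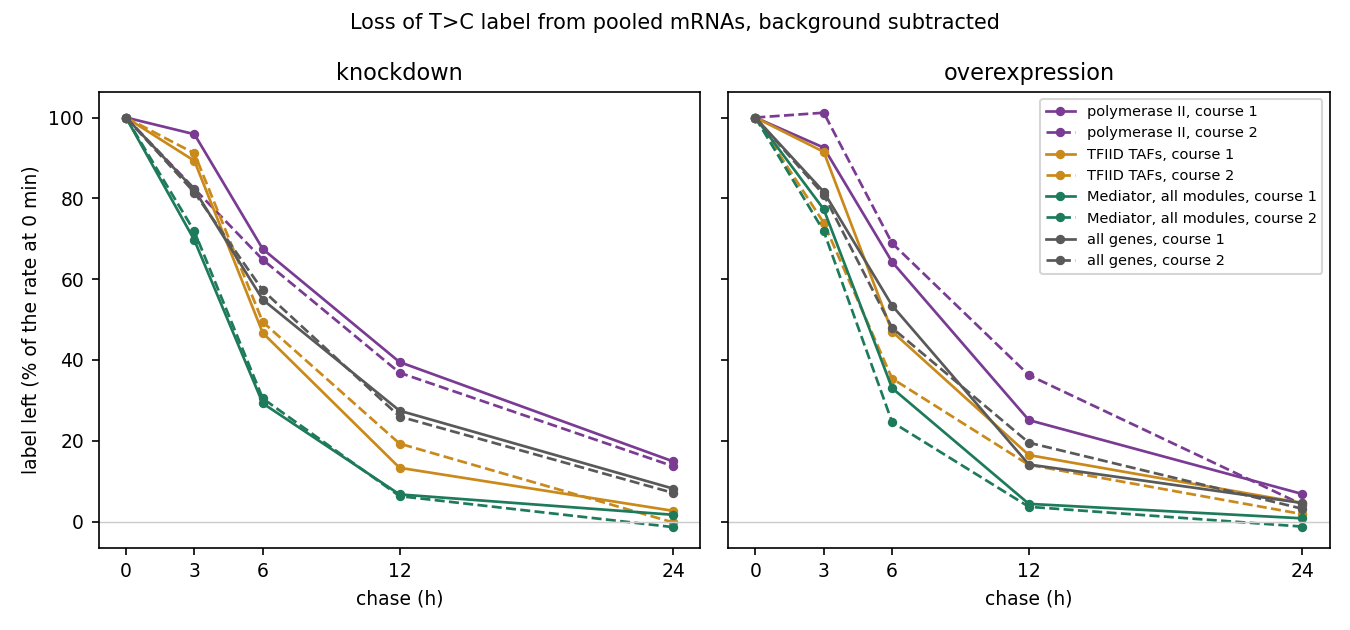
Share of label left (percent of 0 min, y axis) against chase time in h for polymerase II genes, TFIID genes, Mediator genes and all genes, in knockdown (left panel) and overexpression (right panel), with a solid line for course 1 and a dashed one for course 2. At 6 h the polymerase II lines lie between 64.3% and 68.9% and the Mediator lines between 24.6% and 33.02% in both lines.

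The gap between polymerase and Mediator was also seen gene by gene, where abundant genes weigh no more than others. The median gene of the polymerase (11 genes) kept 57.7% and 61.5% at 360 min in knockdown and 55.2% and 69.8% in overexpression, the median Mediator gene (27 genes) 25.5% and 29.2% in knockdown and 31.6% and 19.4% in overexpression, and the median of 8834 genes 37.9% and 43.7% in knockdown and 37.4% and 29.3% in overexpression. Polymerase genes were the more abundant, with a median of 102 CPM against 32.2 CPM for Mediator. The part of abundance in the gap was not tested. Genes are not replicates, so these groups are described over courses and carry no p.

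The polymerase mRNAs that kept most label at 360 min were POLR2E, with 123% and 87.2% in knockdown and 90.5% and 107% in overexpression, and POLR2L, with 96.5% and 79.6% in knockdown and 86.0% and 82.6% in overexpression. The subunits were not alike, and POLR2D and POLR2B kept least. Their means over the courses were 27.1% and 36.1%, under the 41.2% of the median gene. TAF10, a TAF that TFIID and SAGA share, had 94.1% and 94.1% in knockdown and 118% and 90.02% in overexpression. At the other end, GTF2B kept 0.242% and 3.25% in knockdown and 11.9% and 6.47% in overexpression. By mean over the courses GTF2E1 (5.72%), MED18 (10.9%) and MED22 (11.1%) followed. TAF1 came next, with 17.3% and 10.1% in knockdown and 17.7% and 1.63% in overexpression. MED1, MED4, MED13, MED13L and MED23 had means of 13.9% to 18.5% over the courses.

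A half-life, from an exponential fit to these shares with an R2 of at least 0.6, was found in all 4 courses for 33 members and in at least 1 course for 68. Among the 33 the shortest was that of GTF2B, with 2.69 and 1.75 h in knockdown and 2.88 and 1.91 h in overexpression. TAF1 (3.73 and 2.90 h in knockdown, 3.73 and 2.67 h in overexpression), MED1 (2.87 and 5.90 h in knockdown, 2.22 and 2.22 h in overexpression), GTF2E1 (mean 3.496 h) and MED4 (mean 3.498 h) followed, and their courses overlapped with one another.

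The longest were POLR2G, with 11.2 and 7.57 h in knockdown and 9.98 and 12.5 h in overexpression, GTF2H5, with 11.0 and 12.6 h in knockdown and 9.34 and 6.69 h in overexpression, and POLR2F, with 12.9 and 9.96 h in knockdown and 8.77 and 7.55 h in overexpression. MED24 (6.18 and 9.92 h in knockdown, 9.82 and 9.64 h in overexpression) was the one long-lived Mediator mRNA of the 5, and TAF9 (8.86 and 11.1 h in knockdown, 7.29 and 6.30 h in overexpression) was the last. These 5 were not apart from one another beyond the spread of their courses. Among members fitted in 3 courses, POLR2L reached 32.9 h in knockdown and 14.6 and 19.6 h in overexpression, and POLR2E 32.6 h in knockdown and 12.6 and 18.0 h in overexpression, beyond the 24 h of the chase in one course each. By role the median half-life was 6.20 h in knockdown and 6.55 h in overexpression for 7 polymerase genes, 4.12 h in knockdown and 4.56 h in overexpression for 13 Mediator genes, and 4.505 h in knockdown and 3.39 h in overexpression for 5 TFIID genes.

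**Figure D5:**
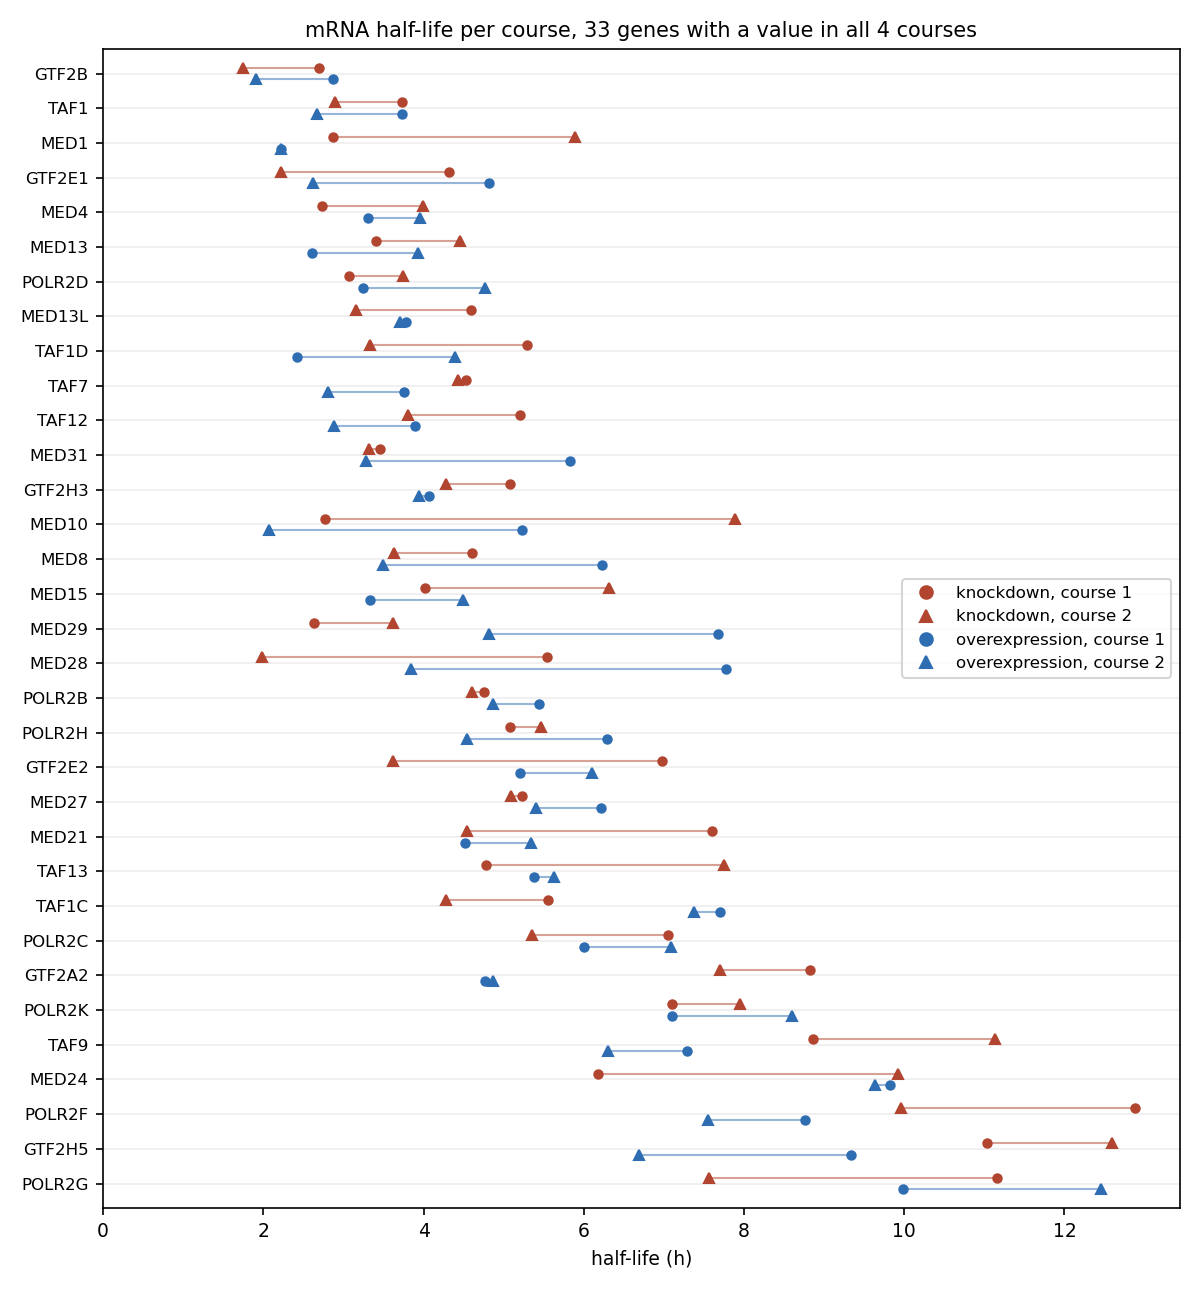
Half-life in h (x axis) of the 33 members with a fit in all 4 courses, with the 2 knockdown courses above the 2 overexpression courses in each row, circles for course 1 and triangles for course 2, joined by a line. GTF2B is shortest, with a mean of 2.31 h over the courses, and POLR2G longest, with 10.3 h.

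Half-lives were not shown to differ between the lines. Of 33 members 0 were called by limma and 2 passed an unadjusted p under 0.05, where 0.0% of 3314 genes were called and 7.72% passed the unadjusted p. These 2 were GTF2A2 (8.82 and 7.70 h in knockdown, 4.76 and 4.87 h in overexpression, log2 ratio 0.78, SE 0.29) and MED29 (2.63 and 3.62 h in knockdown, 7.67 and 4.82 h in overexpression, log2 ratio -0.98, SE 0.37), at adjusted p of 0.64 or more. The median log2 ratio of the members was -0.02, with 16 of 33 above 0, and that of all genes was 0.20, with 2257 of 3314 above 0. Fitted from 180 min on, the medians were 0.42 over 49 members and 0.39 over all genes. The median SE of a member was 0.34, so a ratio of that size was not detectable with 2 courses per line.

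TAF13, the member with the largest difference in level, had a half-life of 4.78 and 7.75 h in knockdown and 5.37 and 5.63 h in overexpression, a log2 ratio of 0.15 (SE 0.35). TAF7 had 4.53 and 4.43 h in knockdown and 3.76 and 2.81 h in overexpression (log2 ratio 0.47, SE 0.31), and POLR2D had 3.07 and 3.74 h in knockdown and 3.24 and 4.76 h in overexpression (log2 ratio -0.21, SE 0.33). None of the 3 passed the half-life test.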

How the data were processed

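SLAM-seq libraries (QuantSeq FWD, 75 ng RNA, 100 nt reads, stranded) were quantified by the authors with SLAMdunk 0.4.3 on hg38, and which annotation release they used is not stated. For 71668 3′ UTR intervals the authors deposited raw counts of reads, multimapped reads, covered T bases and conversions, the count scaled to mapped reads (deposited CPM, used here only to recover mapped reads) and the conversion rate as a deposited fraction, which equalled conversions over covered T bases in all 716859 values compared (tolerance 1e-06). Intervals were summed per symbol, and 1168 shared by several genes, with 2.28% to 2.74% of reads, were dropped.

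Counts were tested with edgeR 4.0.16 (quasi-likelihood, TMM, filterByExpr) in R 4.3.3: sums per course over the 6 samples that all courses share for the lines, single libraries for chase and label. Half-lives used intervals with at most 10% multimapped reads. At least 1 CPM and 4 time points were required, and log2 values were tested with limma 3.58.1. P-values were adjusted by Benjamini-Hochberg over all genes. DESeq2 1.42.0 was an alternative. Fits were tested on simulated data. Named were members called in any comparison, all POLR2 subunits, the highest and lowest difference per role, the extremes of level (3) and half-life (5), and paralogue pairs, and TAF10, TAF11 and TBP were added after their values were seen. Members and lists were chosen with earlier results of these data known. Sequences were read from hg38 and transcript ends from GENCODE version 44. Reads carry no molecular identifiers.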

Additional observations from a re-analysis of the deposited data

Results flagged for a closer look

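Reads of 2 members lay in intervals that the comparisons did not use, because the annotation gives these intervals to a second gene as well. For MED17 there were 35628 such reads, many times the 2022 that were counted, and the interval had 19.6 to 40.4 CPM in knockdown and 20.8 to 42.4 CPM in overexpression libraries. For GTF2A1L there were 14, at no more than 0.211 CPM in knockdown and 0.243 CPM in overexpression libraries. With both kept, a choice made after seeing the data, the members called between the lines stayed at 4 higher and 7 lower, the 11 genes of the main comparison.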

How the results depend on the processing

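TAF13 in level and TAF15 in the chase kept their calls under every alternative run for them. Directions of the other called members held across the fits run except at 0 min alone, where TAF3 was at 0.22 (adjusted p = 0.77) and TAF4 at 0.11 (adjusted p = 0.90). In unlabelled samples, which were not fitted alone, TAF4 was at 0.22, TAF5 at 0.26 and MED30 at -0.14 (log2 with 1 CPM added). The course 1 libraries of these samples stand apart. In level (main: 4 members higher, 7 lower, 2885 genes, median -0.18), DESeq2 called 4 members higher and 12 lower. That was 20.8% of members tested against 27.3% of genes. Leaving out the unlabelled and 720 min samples gave 13 lower and a median of -0.14, with 22.1% of members called against 30.9% of genes. No filter on counts gave a median of -0.15. At 0 min alone 2 members were higher, 4 lower and 1870 genes called (median -0.13), 8.0% of members against 15.8% of genes. The fit of 34 libraries with time as a covariate, which treats libraries of a course as replicates, gave 7 higher, 26 lower and 5311 genes (median -0.15). With 1 course left out, 1 to 3 members were higher, 2 to 7 lower and the median was -0.16 to -0.12. Without overexpression course 1 the counts were 1 higher and 2 lower, and without knockdown course 2 they were 3 and 3, where the lone course is assumed to vary like the other line's.

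The replicate number as a block gave 8 members higher, 27 lower and 5251 genes in level, 45.5% of members tested against 39.9% of genes. Whether same-numbered courses form pairs is not stated by the labels. Deviations of same-numbered courses correlated between the lines at r of 0.47, and those of samples within a course at 0.026 to 0.18. What same-numbered courses share was not tested. In the chase DESeq2 called 861 genes, and leaving out a course 281 to 348, with 1 member (TAF15). For the difference in chase change between the lines (main: 2 genes), DESeq2 called 13 genes, no filter 16, the block 19 and leaving out a course 3 to 5. For the label (main: 0 genes), DESeq2 called 2 and no filter 14. No member was called in either. The members' median log2 half-life ratio (main: -0.02) was 0.42 from 180 min on, where all genes had 0.39, and -0.00015 to 0.11 with a course left out. The causes of these shifts were not tested. Half-lives were fitted in all courses for 33 of 80 members, and the part of depth in this was not tested.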
